A study of Mus musculus with 24 samples.

Results

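Extracellular matrix around muscle cells is cut and rebuilt by secreted and membrane-bound proteases, and 9 genes of this system were followed here through a training experiment on optogenetic muscle. The members were found in the tables by gene name: the metalloproteases Mmp2, Mmp9 and Mmp14, the aggrecanase-type proteases Adamts1 and Adamts5, the plasminogen activator Plau, and the inhibitors Timp1, Timp2 and Timp3. They are 9 of 56941 genes in the count and transcript tables, and 8 of the 9 passed the filter on low counts; Mmp9 did not.

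The cells were C2C12 mouse myoblasts, an established muscle line, that carried the light-gated channel ChR2 fused to the red fluorescent protein tdTomato, in the controls as well as in the stimulated tissues. They were cast as sheets on grooved fibrin gel and kept for about 2 weeks in differentiation medium with horse serum and IGF-1. Pulses of blue light were given for 30 min a day at 1, 4 or 10 Hz, and control tissues were left unstimulated, with 6 tissues in each of the 4 conditions and 1 RNA-seq library per tissue (24 in all). The study describes these as biological replicates; it also describes spontaneous twitching without light, so the controls were not motionless. The libraries held 4.09 to 15.2 M counts, and levels are given as CPM, counts scaled to a common library size of 1 M.

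Matrix metalloproteases are made as inactive precursors. The membrane-anchored enzyme encoded by Mmp14 activates the gelatinase encoded by Mmp2, in a complex that needs the Timp2 protein. An excess of the Timp2 protein blocks the active enzymes. Plau encodes urokinase, which turns plasminogen into plasmin, the enzyme that dissolves fibrin and can activate other proteases. Fibrin was the substrate of these tissues, and the medium held aminocaproic acid, a blocker of plasminogen binding to fibrin. In muscle, remodeling of the matrix by these enzymes is part of growth, repair and the response to exercise. RNA levels do not show how much of each enzyme was active.

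Mmp2 was upregulated at 1 and 4 Hz and not at 10 Hz. Plau was downregulated at 4 Hz. These calls were lost when the share of small non-polyadenylated RNA entered the fit as a covariate. That share was lower in every 1 and 4 Hz library than in every control. Adamts1 stood above control at 1 Hz and below it at 4 and 10 Hz, each time by less than the fold change required for a call, and it was downregulated at both higher frequencies relative to 1 Hz. Timp2 was modestly higher at 1 and 4 Hz, Timp3 at 1 Hz and Adamts5 at 4 Hz, each again below that fold change. Mmp14 and Timp1 did not pass edgeR's test against control. A gene is called here when edgeR's quasi-likelihood test gave an adjusted p below 0.05 with a log2 fold change beyond 0.5 in either direction, the thresholds the study used.

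Counting adjusted p alone, in either direction, 4, 5 and 1 of the 8 tested members passed at 1, 4 and 10 Hz, where 35.4%, 39.4% and 4.89% of all genes did. Against control, 1 of the 8 tested members was called higher at 1 Hz and 0 lower, beside 9.34% of all tested genes called higher and 8.99% called lower. At 4 Hz, 1 member was called higher and 1 lower, where 10.5% and 9.61% of all genes were. At 10 Hz, 0 members were called, with 1.24% of genes called higher and 0.623% lower; the member that passed by adjusted p alone was Adamts1, which limma on log2(TPM + 0.1) called lower. Their median log2 fold change was 0.31 at 1 Hz, -0.01 at 4 Hz and 0.01 at 10 Hz, and over all tested genes the medians were -0.01, -0.01 and -0.01. As a count, the members were therefore near the background at 1 and 4 Hz. The 3 comparisons share the control libraries. Because whole tissues were sequenced, a fall in the number of cells of a type and a fall in RNA per cell cannot be told apart.

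**Figure D1:**
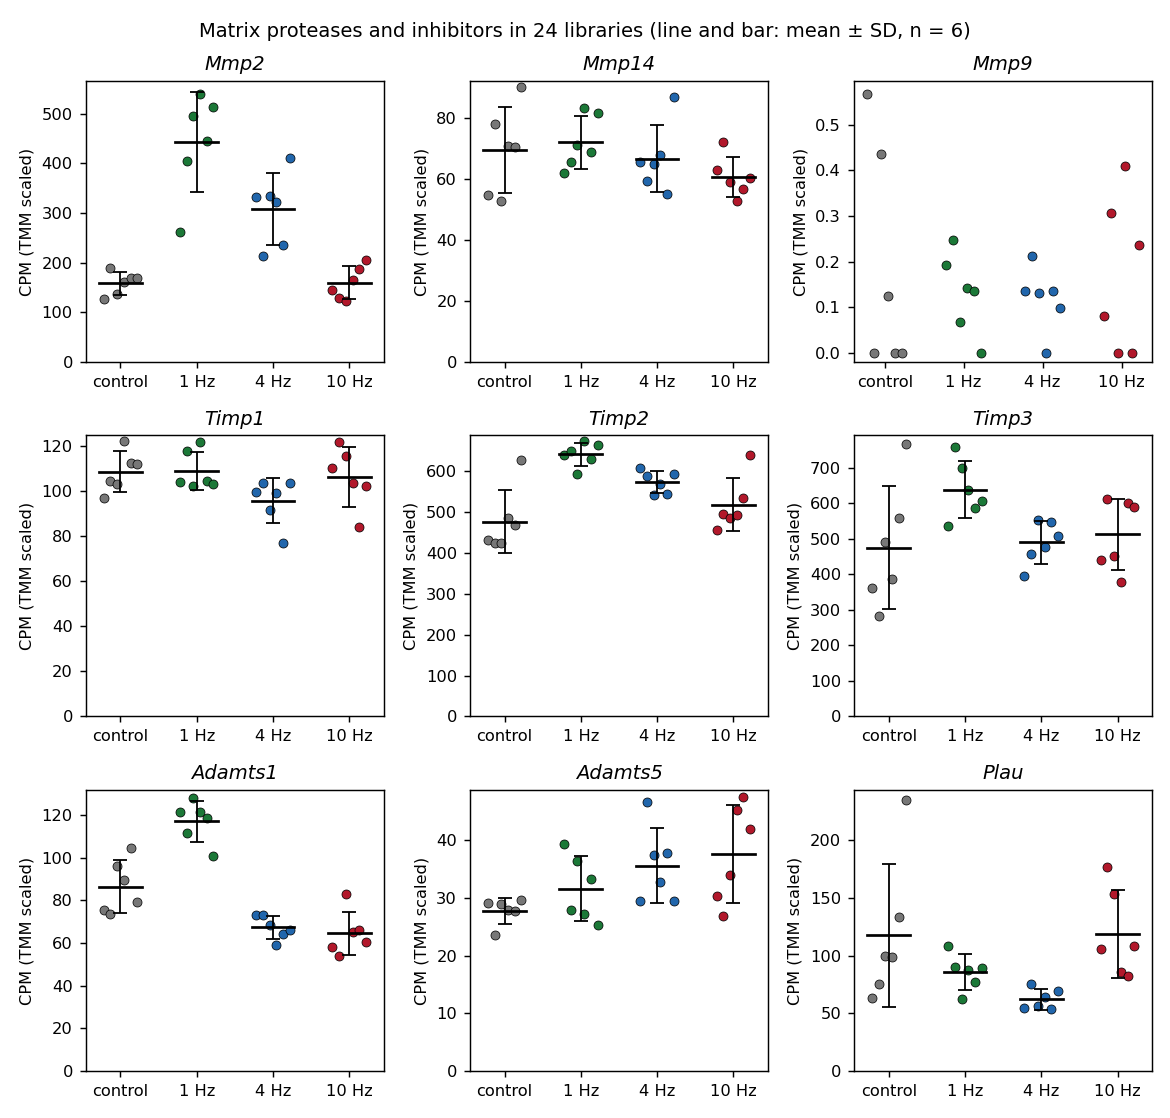
Level of each member in every library, in CPM (linear axis) against condition. Points are libraries, the line and bar are the mean ± SD of 6, and Mmp9, with at most 3 counts per library, is shown as points only. Mmp2 at 1 Hz lies between 262 and 540 CPM, above every control library.

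Mmp2 encodes gelatinase A, which cuts denatured collagens and the collagen IV of basement membranes. In the controls it ranged from 127 to 190 CPM with a median of 165. At 1 Hz the lowest library was at 262, the median at 470 and the highest at 540. At 4 Hz the values ran from 213 to 411 with a median of 327. All libraries of both conditions lay above every control library.

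The log2 fold change of Mmp2 was 1.48 ± 0.17 (SE, n = 6 per condition) at 1 Hz, a 2.80-fold rise (edgeR adjusted p = 1.23e-06). At 4 Hz it was 0.96 ± 0.16, or 1.94-fold (edgeR adjusted p = 6.19e-05). At 10 Hz the libraries ranged from 122 to 206 CPM with a median of 155 and overlapped the controls. Here the log2 fold change was 0.01 with a 95% interval of -0.33 to 0.35 (edgeR adjusted p = 0.99). The size of any difference at 10 Hz was thus bounded well under the rise at 1 Hz.

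Leaving out any single library kept the rise at 1 Hz between 1.42 and 1.60 and that at 4 Hz between 0.87 and 1.05 on the log2 scale. Both calls were lost when the share of small non-polyadenylated RNA entered the fit as a covariate, with Mmp2 at 0.89 (adjusted p = 0.16) for 1 Hz and 0.40 (adjusted p = 0.355) for 4 Hz. That share, summed over 24 genes such as Rn7sk, Rmrp and Rpph1, was 131 ± 23.1 CPM in controls, 30.2 ± 20.9 at 1 Hz, 27.6 ± 12.4 at 4 Hz and 125 ± 87.0 at 10 Hz (SD, n = 6). Every 1 Hz and every 4 Hz library was below every control (two-sided exact permutation p = 0.00216, the smallest that 6 against 6 can give; adjusted over 48 such tests, 0.0173). The share and the stimulation therefore cannot be told apart at those frequencies. Within conditions, the 1 Hz library with the lowest Mmp2 (262 CPM) had the highest share (70.0 CPM). The 10 Hz library with the highest Mmp2 (206 CPM) had the lowest share (38.5 CPM). Likewise, the control library with the highest Mmp2 (190 CPM) had the lowest share (98.8 CPM). By contrast, the control with the highest share (169 CPM) was at 168 CPM of Mmp2, above the control median of 165. The 4 Hz library with the highest share (50.9 CPM) was second highest for Mmp2 (335 CPM).

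Markers of differentiated myotubes were also higher at 1 and 4 Hz, and part of them at 10 Hz, where Mmp2 was not. The summed level of 10 of them, Acta1 and Myog among these, ranged from 5498 to 7708 CPM in controls, 10045 to 14551 at 1 Hz, 10620 to 16998 at 4 Hz and 6335 to 11457 at 10 Hz. Of the 10, 8, 9 and 5 were called higher at 1, 4 and 10 Hz, where 9.34%, 10.5% and 1.24% of all tested genes were. All 6 markers of undifferentiated myoblasts were also detected, and their sum was 1149 ± 121 CPM in controls, 1585 ± 149 at 1 Hz, 1472 ± 170 at 4 Hz and 1271 ± 115 at 10 Hz (SD, n = 6). Itga7 and Sdc4 made up most of that sum, at means of 624 and 371 CPM in controls and 942 and 423 at 1 Hz. Of the 6 myoblast markers, 3 were called higher and 0 lower at 1 Hz, and 2 higher and 1 lower at 4 Hz. The lower gene was Myf5 (log2 fold change -0.61, edgeR adjusted p = 0.00879). The part of either marker list in the rise of Mmp2 was not tested. Of 7 fibroblast markers 4 averaged 1 CPM or more, and the list summed to 244 to 435 CPM in controls, 281 to 381 at 1 Hz, 250 to 282 at 4 Hz and 223 to 378 at 10 Hz. Most of this sum was Ly6a, at a mean of 284 CPM in controls and 285 at 1 Hz. The less abundant Pi16 was called higher at 1 Hz (log2 fold change 1.17, edgeR adjusted p = 0.0105), and Pdgfra passed there by adjusted p alone (0.45, edgeR adjusted p = 0.0257). Their part in the rise of Mmp2 was not tested either. Macrophage and endothelial cells were not evident: Ptprc and Tyrobp had 1 count each in the whole series, Adgre1 had 2 and Emcn had 0. The macrophage list, of which 2 of 6 genes averaged 1 CPM or more, summed to 76.6 to 115 CPM in controls, 86.9 to 112 at 1 Hz, 69.6 to 104 at 4 Hz and 72.6 to 98.9 at 10 Hz, nearly all from Cd68. The 5 endothelial genes summed to at most 2.15 CPM in any library.

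Mmp14 encodes the membrane-type metalloprotease that activates the Mmp2 product. Its libraries spanned 52.7 to 90.4 CPM in controls (median 70.8), 62.1 to 83.6 at 1 Hz (median 70.0), 55.2 to 87.0 at 4 Hz (median 65.4) and 53.0 to 72.1 at 10 Hz (median 59.8). The 4 ranges overlapped. Its log2 fold change against control was 0.06 with a 95% interval of -0.19 to 0.31 at 1 Hz, -0.06 (-0.30 to 0.19) at 4 Hz and -0.19 (-0.44 to 0.05) at 10 Hz, with edgeR adjusted p of 0.734, 0.735 and 0.379. A change of the size seen in Mmp2 at 1 Hz or 4 Hz lies outside the first 2 intervals.

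Mmp9 encodes gelatinase B, prominent in inflammatory cells. It was barely detected, with 26 of 186.9 M counts in all 24 libraries, a share of 0.139 CPM (95% exact Clopper-Pearson interval 0.0909 to 0.204, counting error only). The counts were 7 in controls, 5 at 1 Hz, 6 at 4 Hz and 8 at 10 Hz, and 7 libraries had 0, which at 3 counts allows up to 0.262 to 0.715 CPM depending on depth. No difference was detectable at this depth. Without the filter on low counts, edgeR's adjusted p for Mmp9 was 0.678 to 1 over the 6 comparisons.

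**Figure D2:**
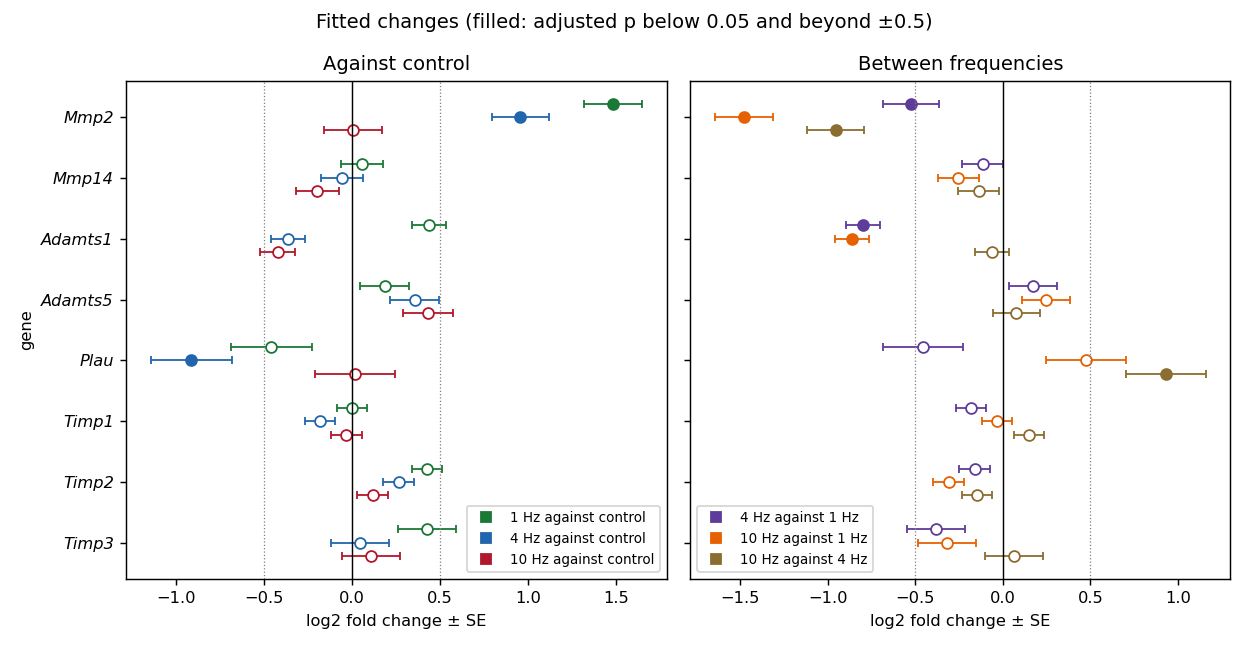
Fitted log2 fold change ± SE (x axis) of the 8 tested members, against control on the left and between frequencies on the right, from 1 edgeR fit of 24 libraries. Filled points are called and dotted lines mark the 0.5 minimum; Mmp2 at 1 Hz (1.48) and Plau at 4 Hz (-0.91) are the extremes against control.

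Adamts1 encodes a secreted protease that cuts versican and aggrecan, large proteoglycans of the matrix. Its control libraries ran from 73.6 to 105 CPM with a median of 84.4. At 1 Hz they ran from 101 to 128 (median 120), and 5 of 6 lay above every control. At 4 Hz the range was 58.9 to 73.0 (median 67.3), below every control, and at 10 Hz it was 54.1 to 83.0 (median 62.7), with 5 of 6 below every control.

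Against control the log2 fold change of Adamts1 was 0.44 ± 0.10 (SE, n = 6 per condition) at 1 Hz (edgeR adjusted p = 0.00112). At 4 Hz it was -0.36 ± 0.10 (edgeR adjusted p = 0.0047) and at 10 Hz -0.42 ± 0.10 (edgeR adjusted p = 0.0124). None of the 3 reached the 0.5 minimum, so each passed by adjusted p alone. With the small RNA share as a covariate the values were 0.41, -0.39 and -0.43 (adjusted p = 0.317, 0.199 and 0.0155). At 10 Hz it was -0.51 and called without 10 Hz replicate 3, which held the highest level of that condition (83.0 CPM).

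Between frequencies the separation was wider. Adamts1 dropped between 1 Hz and 4 Hz, with a log2 fold change of -0.80 ± 0.10 (edgeR adjusted p = 1.03e-05). At 10 Hz it was lower than at 1 Hz by -0.86 ± 0.10 (edgeR adjusted p = 7.51e-07). All 1 Hz libraries lay above all 4 Hz and 10 Hz libraries. Both differences were kept with the small RNA share as a covariate, at -0.80 (adjusted p = 1.27e-05) and -0.84 (adjusted p = 0.00368). The 4 and 10 Hz groups did not differ beyond their spread, at -0.06 with a 95% interval of -0.26 to 0.14.

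Adamts1 and Adamts5 lie side by side on mouse chromosome 16 (GRCm39), both on the minus strand. Adamts1 spans chr16:85590579-85600009 with 9 exons and Adamts5 spans chr16:85653061-85698716 with 8 exons. The gap between them is 53.1 kb and holds 0 annotated protein-coding genes. Adamts5 encodes a major aggrecan-cutting enzyme of the family, and its level followed another course than that of its neighbor. It ranged from 23.5 to 29.7 CPM in controls (median 28.4), 25.4 to 39.3 at 1 Hz (median 30.6), 29.5 to 46.6 at 4 Hz (median 35.1) and 26.9 to 47.5 at 10 Hz (median 38.0). Of the 6 libraries, 3, 4 and 5 lay above every control at 1, 4 and 10 Hz.

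The log2 fold change of Adamts5 was 0.19 ± 0.14 at 1 Hz (edgeR adjusted p = 0.312), 0.36 ± 0.14 at 4 Hz (edgeR adjusted p = 0.0422) and 0.43 ± 0.14 at 10 Hz (edgeR adjusted p = 0.0674), with n = 6 per condition. The 4 Hz value passed by adjusted p alone, and it no longer did under total count scaling (adjusted p = 0.135), limma on log2(TPM + 1) (0.13, adjusted p = 0.482), the replicate block (adjusted p = 0.0531) or the small RNA covariate (0.20, adjusted p = 0.683), while single-library omissions gave an adjusted p of up to 0.128. With limma on log2(TPM + 1) the 10 Hz value was 0.26 (adjusted p = 0.278). Without 10 Hz replicate 2 the 10 Hz value was 0.51 and was called (adjusted p = 0.0289).

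Of the 9 members, 5 had a promoter sequence in the RefSeq table used (table build GRCm38.p6), each with 1 exact match in GRCm39: Adamts1, Mmp14, Timp1, Timp2 and Timp3. A promoter is here the 250 bases before and 50 bases after the RefSeq start, from which positions are counted. That start lies 8 to 329 bases from the GENCODE gene start, the most for Timp2, whose whole window falls inside the GENCODE gene. The first sequence is shown because Adamts1 separated 1 Hz from the higher frequencies, and the other two because Timp2 and Timp1 are the most abundant inhibitors and differed in whether they passed a test at 1 Hz. Capitals mark matches, on either strand, to the letters of a GC box, which are GGGCGG, to those of a TATA box, which read TATAAA, or to an AP-1 element, written TGANTCA with N for any base. They were located as follows: Adamts1 at chr16:85599952-85600251 on the minus strand, Timp2 at chr11:118246188-118246487 on the minus strand, and Timp1 at chrX:20736155-20736454 on the plus strand.
Adamts1: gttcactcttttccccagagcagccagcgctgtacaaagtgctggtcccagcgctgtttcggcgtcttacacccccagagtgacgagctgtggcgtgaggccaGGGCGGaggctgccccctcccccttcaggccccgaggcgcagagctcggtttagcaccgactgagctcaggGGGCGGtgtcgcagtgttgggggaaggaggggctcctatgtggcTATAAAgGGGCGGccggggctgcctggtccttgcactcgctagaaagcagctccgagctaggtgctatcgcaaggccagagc
Timp2: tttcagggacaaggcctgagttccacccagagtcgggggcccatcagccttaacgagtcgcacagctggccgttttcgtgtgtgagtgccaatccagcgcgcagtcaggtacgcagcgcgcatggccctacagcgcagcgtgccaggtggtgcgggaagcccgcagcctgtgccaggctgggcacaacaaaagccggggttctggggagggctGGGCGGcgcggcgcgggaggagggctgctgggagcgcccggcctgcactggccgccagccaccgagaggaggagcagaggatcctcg
Timp1: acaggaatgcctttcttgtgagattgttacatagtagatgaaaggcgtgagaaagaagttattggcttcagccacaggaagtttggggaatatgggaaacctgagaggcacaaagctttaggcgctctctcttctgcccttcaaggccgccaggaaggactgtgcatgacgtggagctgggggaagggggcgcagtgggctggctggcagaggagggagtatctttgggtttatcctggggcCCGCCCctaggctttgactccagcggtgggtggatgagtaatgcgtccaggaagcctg

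The Adamts1 promoter held a TATA box at -32 from the start and 3 GC boxes, at -147, -76 and -25. Timp2 held 1 GC box at -37 and 2 E-boxes (CANNTG) at -188 and -107, and Timp1 held 1 GC box at -8 and a TEAD element (GGAATG) at -247. Mmp14 held GC boxes at -19 and -13, an E-box at -129 and an EGR element (GCGNGGGCG) at -17 that overlaps a GC box. Timp3 held GC boxes at -15 and 13 and E-boxes at -232 and -60. A GC box was thus found in all 5 promoters, a TATA box only in that of Adamts1, and an AP-1, cyclic AMP response (TGACGTCA), CArG box or MEF2 element in 0 of them. Over 32544 promoters of the same length, 35.9% held a GC box, 13.6% a TATA box, 72.3% an E-box, 14.6% a TEAD element, 5.6% an EGR element, 7.79% an AP-1 element, 1.8% a cyclic AMP response element, 1.64% a CArG box and 3.16% a MEF2 element. These are matches of letters and not sites shown to be bound.

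Plau is the urokinase gene (GRCm39 chr14:20886722-20893453, plus strand, 11 exons). Relative to their mean its control libraries varied the most of any tested member, from 63.6 to 235 CPM with a median of 99.6 (coefficient of variation 52.9%, against 36.5% for Timp3). At 1 Hz they ran from 62.3 to 108 (median 88.2), at 4 Hz from 53.6 to 75.5 (median 60.3) and at 10 Hz from 82.1 to 177 (median 107). At 4 Hz 3 of the 6 libraries lay below every control, and the 2 groups overlapped.

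The log2 fold change of Plau was -0.91 ± 0.23 (SE, n = 6 per condition) at 4 Hz (edgeR adjusted p = 0.00273). It was -0.46 ± 0.23 at 1 Hz (edgeR adjusted p = 0.123) and 0.02 ± 0.23 at 10 Hz (edgeR adjusted p = 0.976), neither of which passed. At 1 Hz single-library omissions gave -0.57 to -0.14, and the small RNA covariate gave 0.26 (adjusted p = 0.852). The control library at 235 CPM (replicate 6) carried part of this difference: at 4 Hz, leaving out single libraries gave -1.02 to -0.59, the call held in each case, and the largest adjusted p was 0.0143. With the small RNA share as a covariate the value at 4 Hz was -0.18 (adjusted p = 0.831). The fibroblast marker sum had a mean difference of -70.9 CPM at 4 Hz against control, which did not pass after adjustment (two-sided exact permutation p = 0.0152, adjusted 0.0521). The ranges overlapped. Ly6a carried most of that difference (log2 fold change -0.35, edgeR adjusted p = 0.0235), Dcn was called lower (-0.59, edgeR adjusted p = 0.00695) and Pi16 was called higher (1.37, edgeR adjusted p = 0.00221). The part of these in the result was not tested. Compared with 4 Hz, Plau was upregulated at 10 Hz by 0.93 ± 0.23 (edgeR adjusted p = 0.00507), with all 10 Hz libraries above all 4 Hz libraries. With that covariate this difference was 0.30 (adjusted p = 0.908).

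Timp2 was the most abundant inhibitor by TPM, the length-adjusted level. Besides blocking metalloproteases, its protein bridges the Mmp14 and Mmp2 products. In CPM it ranged from 424 to 626 in controls (median 449), 593 to 673 at 1 Hz (median 643), 540 to 608 at 4 Hz (median 577) and 455 to 639 at 10 Hz (median 495). At 1 Hz 5 of the 6 libraries exceeded every control, and at 4 Hz none did, because control replicate 6 stood at 626 CPM and the other controls at 424 to 484.

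The log2 fold change of Timp2 was 0.43 ± 0.09 (SE, n = 6 per condition) at 1 Hz (edgeR adjusted p = 0.000517) and 0.27 ± 0.09 at 4 Hz (edgeR adjusted p = 0.0167), both under the 0.5 minimum. At 10 Hz it was 0.12 ± 0.09 (edgeR adjusted p = 0.471). Without control replicate 6 the 1 Hz value was 0.52 and was called (adjusted p = 2.32e-05). The 4 Hz value was 0.17 under total count scaling (adjusted p = 0.102) and 0.12 with limma on log2(TPM + 1) (adjusted p = 0.358), and with the small RNA share as a covariate the 1 and 4 Hz values were 0.32 and 0.15 (adjusted p = 0.387 and 0.608). Relative to 1 Hz, the 10 Hz level was lower by -0.31 ± 0.09 (edgeR adjusted p = 0.00701), also under the minimum.

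Timp3 encodes the inhibitor that binds to the matrix itself and also blocks ADAM and ADAMTS enzymes. Its controls ranged from 284 to 767 CPM (median 439), against 537 to 760 at 1 Hz (median 623), 397 to 554 at 4 Hz (median 492) and 378 to 612 at 10 Hz (median 521). The groups overlapped, with the same control library highest. At 1 Hz the log2 fold change was 0.43 ± 0.17 (edgeR adjusted p = 0.0457), and without control replicate 6 it was 0.62 and called (adjusted p = 0.00221). The 1 Hz value did not pass under total count scaling (0.36, adjusted p = 0.0781), limma on log2(TPM + 1) (0.44, adjusted p = 0.0589) or the small RNA covariate (0.53, adjusted p = 0.496), and the omission with the lowest value gave 0.33, with adjusted p reaching 0.1 over the omissions. At 4 and 10 Hz it was 0.05 ± 0.17 and 0.11 ± 0.17 (edgeR adjusted p = 0.849 and 0.765).

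Timp1 encodes an inhibitor that is induced by cytokines and wounding in many tissues. It was the steadiest member across libraries, at 96.9 to 122 CPM in controls (median 108), 102 to 122 at 1 Hz (median 104), 77.1 to 104 at 4 Hz (median 99.3) and 84.2 to 122 at 10 Hz (median 107). Its log2 fold change was 0.00 (95% interval -0.18 to 0.18) at 1 Hz, -0.18 (-0.36 to -0.000267) at 4 Hz and -0.03 (-0.21 to 0.15) at 10 Hz, with edgeR adjusted p of 0.985, 0.0984 and 0.893. At 4 Hz it passed by adjusted p alone under total count scaling (-0.28, adjusted p = 0.0132) and with limma on log2(TPM + 1) (-0.38, adjusted p = 0.00122), as it did against 1 Hz with that limma fit (-0.31, adjusted p = 0.0188). Timp1 lies within the gene Syn1 on the opposite strand, and Timp3 within Syn3. The study's methods name a directional library kit, and whether strand was used in counting is not given in the sources used here; Syn1 drew 21.2% as many counts as Timp1, and Syn3 drew 0.925% as many as Timp3.

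Levels can be set against each other between genes only per transcript length, and in TPM the 3 inhibitors had the highest control means. In controls the mean was 391 ± 65.1 TPM for Timp2, 227 ± 21.9 for Timp1, 151 ± 55.8 for Timp3, 97.4 ± 16.6 for Mmp2, 78.4 ± 42.7 for Plau, 43.8 ± 12.6 for Mmp14, 26.7 ± 3.39 for Adamts1 and 3.77 ± 0.227 for Adamts5 (SD, n = 6). Neighbors in that order overlapped between Timp1 and Timp3, Timp3 (96.7 to 249 TPM) and Mmp2 (77.1 to 117 TPM), Mmp2 and Plau, Plau and Mmp14, and Mmp14 and Adamts1. At 1 Hz Mmp2 reached 237 ± 47.2 TPM, a level that overlapped those of Timp1 (216 ± 18.4) and Timp3 (196 ± 25.3). Timp2 made up 50.9% to 57.4% of the summed TPM of the 3 inhibitors across the 4 conditions.

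The summed TPM of Timp1, Timp2 and Timp3 divided by that of Mmp2, Mmp9 and Mmp14 was 5.50 ± 0.68 in controls (SD, n = 6; range 4.27 to 6.09). At 1 Hz it was 3.33 ± 0.84 (2.62 to 4.92), at 4 Hz 4.01 ± 0.89 (3.17 to 5.54) and at 10 Hz 6.12 ± 0.77 (5.04 to 7.11). No test was made of this ratio. The metalloprotease sum was 141 ± 26.8 TPM in controls, 280 ± 48.8 at 1 Hz, 189 ± 36.0 at 4 Hz and 125 ± 19.6 at 10 Hz, and the inhibitor sum was 769 ± 124, 898 ± 50.7, 732 ± 43.7 and 756 ± 63.5 TPM in the same order. The ranges of the ratio at 1 Hz and 4 Hz overlapped the control range, while that at 10 Hz lay above every 1 Hz library.

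**Figure D3:**
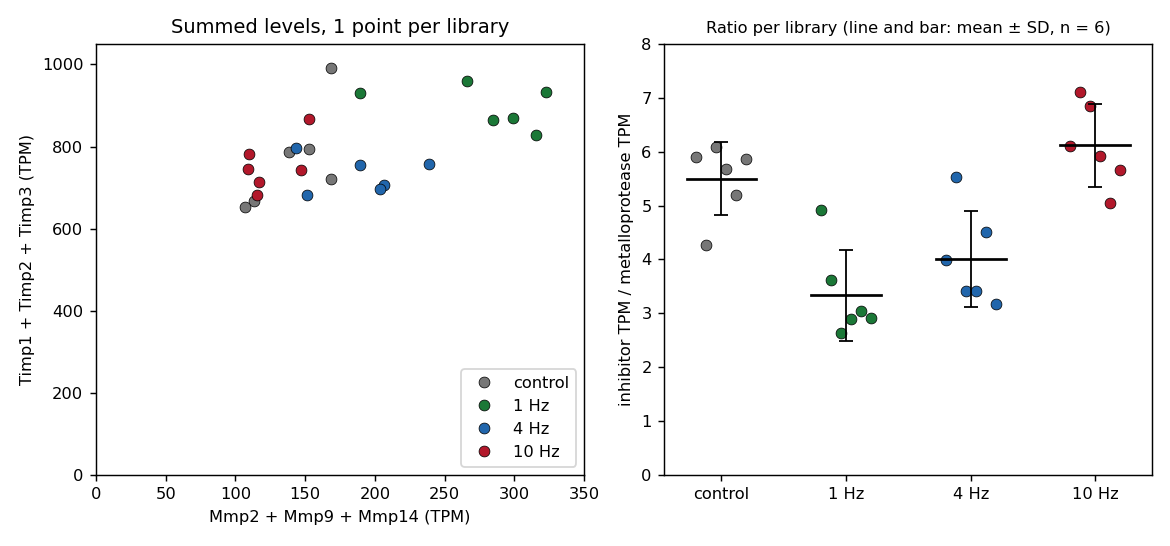
Left, summed TPM of the 3 inhibitors (y axis) against that of the 3 metalloproteases (x axis), 1 point per library. Right, their ratio by condition with the mean ± SD of 6; it averages 5.50 in controls, 3.33 at 1 Hz, 4.01 at 4 Hz and 6.12 at 10 Hz.

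Between frequencies, 2 members were called lower at 4 Hz than at 1 Hz (Mmp2 and Adamts1) and 0 higher, where 1.4% of all tested genes were called lower and 1.59% higher. At 10 Hz against 1 Hz the same 2 genes were called lower, where 8.49% of genes were called lower and 9.45% higher. At 10 Hz against 4 Hz, 1 member was called higher (Plau) and 1 lower (Mmp2), beside 5.32% and 5.64% of genes. By adjusted p alone 2, 3 and 2 members passed in these comparisons, where 12.3%, 36.3% and 22.8% of genes did. Mmp2 had a log2 fold change of -1.48 ± 0.16 from 1 Hz to 10 Hz (edgeR adjusted p = 6.43e-07), and from 4 Hz to 10 Hz of -0.95 ± 0.16 (edgeR adjusted p = 0.000316), with no overlap in either case. With the small RNA share as a covariate these values were -0.98 (adjusted p = 0.0134) and -0.49 (adjusted p = 0.561). The difference between 4 and 1 Hz was smaller, at -0.53 ± 0.16 (edgeR adjusted p = 0.0329), its groups overlapped, and the call was lost in 7 of 12 fits that each left out 1 library: 1 Hz replicates 3, 4, 5 and 6 and 4 Hz replicates 2, 4 and 5, with values of -0.54 to -0.44.

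Other genes of the system were taken from lists of 83 genes, of which 49 were tested. At 1 Hz 14 were called higher and 2 lower (28.6% and 4.08% of those tested), at 4 Hz 9 and 5 (18.4% and 10.2%), and at 10 Hz 1 and 0. Of all tested genes, 9.34% were called higher and 8.99% lower at 1 Hz, 10.5% and 9.61% at 4 Hz, and 1.24% and 0.623% at 10 Hz. With the small RNA covariate, 1 gene of all tested was called higher and 0 lower at 1 Hz, and 153 and 96 at 4 Hz. Among 8 other metalloproteases tested of 20, 3 were called higher and 1 lower at 1 Hz. Besides Mmp19 and Mmp15 these were Mmp13 (1.29 ± 0.33, edgeR adjusted p = 0.00367) and the lower Mmp10 (-1.81 ± 0.66, edgeR adjusted p = 0.0334), both near 1 to 2 CPM and named after their values were seen. Mmp19, a basement membrane protease, rose from 13.3 ± 2.42 CPM in controls to 36.7 ± 8.24 at 1 Hz and 23.2 ± 4.07 at 4 Hz (log2 fold changes 1.48 ± 0.16 and 0.81 ± 0.16, edgeR adjusted p = 8.03e-07 and 0.000215). Mmp15, a membrane-type relative of Mmp14, rose from 17.3 ± 3.17 to 33.7 ± 4.31 and 33.5 ± 5.81 CPM (0.96 ± 0.15 and 0.95 ± 0.15, edgeR adjusted p = 5e-05 and 3e-05).

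In the plasminogen system 10 of 11 genes were tested, and 1 was called, higher at both 1 and 4 Hz, beside 9.34% and 10.5% of all tested genes. It was Serpine2, encoding protease nexin, an inhibitor of thrombin and urokinase, with log2 fold changes of 0.85 ± 0.14 and 0.65 ± 0.14 (edgeR adjusted p = 9.81e-05 and 0.000895). The receptor of urokinase, Plaur, was at 73.0 ± 11.4 CPM in controls and 64.1 ± 8.87 at 4 Hz, a log2 fold change of -0.19 ± 0.14 (edgeR adjusted p = 0.309). Plat, the tissue-type activator, had log2 fold changes of 0.27 ± 0.09 at 1 Hz (edgeR adjusted p = 0.0237) and -0.05 ± 0.09 at 4 Hz (edgeR adjusted p = 0.667).

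Of 6 ADAM genes tested, Adam19 was called higher at 1 and 4 Hz (0.62 ± 0.14 and 0.58 ± 0.14, edgeR adjusted p = 0.00107 and 0.00165). The sheddases Adam10 and Adam17, which release membrane-bound growth factors and receptors, were called lower at 4 Hz (-0.72 ± 0.14 and -0.52 ± 0.10, edgeR adjusted p = 0.000209 and 0.000329). Of 11 other ADAMTS and ADAMTS-like genes tested, 4 were called higher at 1 Hz, 4 at 4 Hz and 1 at 10 Hz. Of all tested genes, 9.34%, 10.5% and 1.24% were. All of the called ADAMTS and ADAMTS-like genes averaged under 10 CPM. They are named here after their values were seen: Adamtsl1, Adamtsl2 and Adamtsl3 at both 1 and 4 Hz, Adamts2 at 1 Hz, Adamts10 at 4 Hz, and again Adamtsl2 at 10 Hz (1.33 ± 0.34, edgeR adjusted p = 0.0218). Reck, a membrane-bound metalloprotease inhibitor, was at 2.99 ± 1.02 CPM in controls and passed no test against control. Furin, which activates the Mmp14 product, had a log2 fold change of -0.11 ± 0.10 at 1 Hz (edgeR adjusted p = 0.411) and -0.23 ± 0.10 at 4 Hz (edgeR adjusted p = 0.0607). Of 8 activating and other matrix proteases tested, 1 was called higher and 1 lower at 1 Hz, beside 9.34% and 8.99% of all tested genes. The first was the secreted serine protease gene Htra1 (0.67 ± 0.12, edgeR adjusted p = 0.000185). The second, also named after its values were seen, was Ctsk, encoding the collagen-cutting cathepsin K, at 0.631 CPM against 1.83 in controls (-1.53 ± 0.33, edgeR adjusted p = 0.000916).

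Of 5 substrate genes tested, 4 were called higher at 1 Hz, where 9.34% of all tested genes were. They were Nid1 and Hspg2, components of the basement membrane, Dag1, the laminin receptor dystroglycan, and Fn1, fibronectin, with log2 fold changes of 0.73 ± 0.11, 0.71 ± 0.16, 0.52 ± 0.09 and 0.51 ± 0.16 (edgeR adjusted p = 1.68e-05, 0.00139, 0.000139 and 0.0136); Fn1 was named after its values were seen. At 4 Hz Hspg2 was called higher (0.53 ± 0.16, edgeR adjusted p = 0.00974) and Vcan, the versican cut by Adamts1, was called lower (-0.67 ± 0.18, edgeR adjusted p = 0.0046). At 10 Hz 0 substrate genes were called. With the small RNA share as a covariate, 1 gene of all those tested was called higher at 1 Hz and 0 lower. At most 1 of the 4 substrate calls at 1 Hz was thus kept with it.

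**Figure D4:**
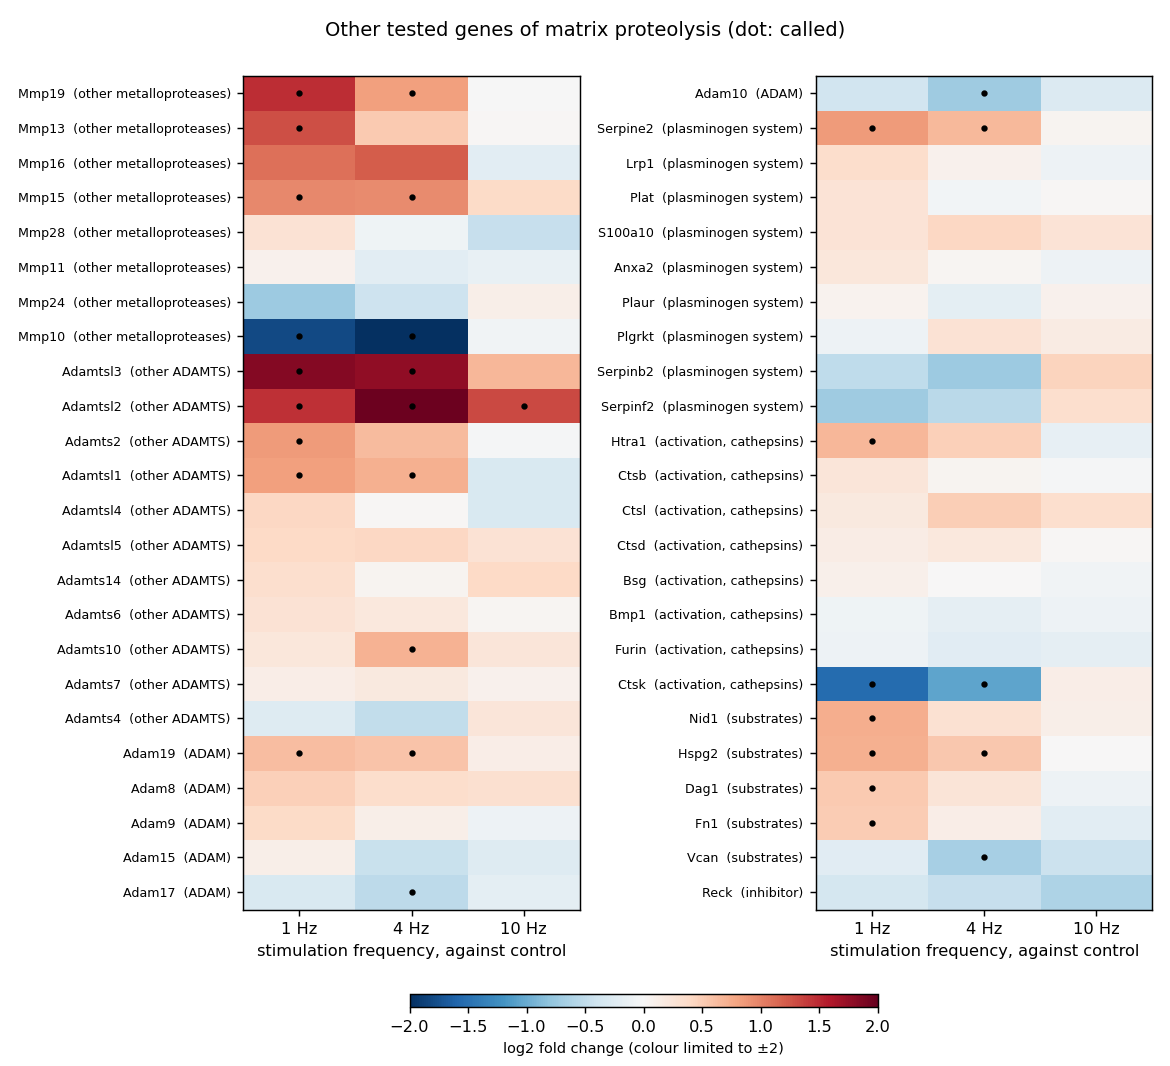
Log2 fold change against control (color, limited to ±2) of 48 tested genes of the other lists at each frequency; a dot marks a called gene. Mmp19 at 1 Hz (1.48) and Mmp15 (0.96) are red at 1 and 4 Hz, and 1 gene is dotted at 10 Hz.

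The genes whose levels ran closest to each member were found by the root mean square (RMS) difference of centered log2 CPM over all 24 libraries, among 9294 genes averaging at least 10 CPM. This is a description of likeness, with no test. For Mmp2 the nearest gene was Mmp19 (0.158), followed by Bgn, the small proteoglycan biglycan (0.171), and by Ugt1a6a (0.191). Mmp2's own RMS deviation was 0.691. Plau ran nearest to Tnc, tenascin C (0.248), and then Thbs2, thrombospondin 2 (0.255), both matrix glycoproteins. The nearest genes to Mmp14, Timp1, Timp2, Timp3, Adamts1 and Adamts5 were Axl (0.105), Cfl1 (0.0981), St3gal5 (0.0945), Epb41l3 (0.169), Mon2 (0.182) and Kctd9 (0.196). In the same order, the own RMS deviations of these members were 0.219, 0.155, 0.212, 0.345, 0.377 and 0.278, and that of Plau was 0.526. No member was the nearest gene of another member. Among members, Mmp14 and Timp1 were closest to each other, at 0.203, which is above Timp1's own deviation of 0.155. Timp1 ranked 347 for Mmp14 and Mmp14 ranked 1402 for Timp1, while Timp2 ranked 110 for Timp3 (0.262). The member closest to Mmp2 was Timp2, at 0.546 and rank 1201 of 9294.

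The other members lie, on GRCm39, as follows. Mmp2 spans chr8:93553902-93580049 on the plus strand with 13 exons, and Mmp14 spans chr14:54668878-54682821 on the plus strand with 10. Mmp9 lies at chr2:164780439-164797771 on the plus strand with 13 exons. Timp1 is at chrX:20736316-20740976 on the plus strand with 6 exons, Timp2 at chr11:118191887-118246566 on the minus strand with 5, and Timp3 at chr10:86136236-86185371 on the plus strand with 5. Plau lies within the long noncoding gene Gm63115, and Mmp2 overlaps Gm45472, both on the opposite strand; Gm45472 had 56 counts in the whole series.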

How the data were processed

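RNA from 24 tissues was sequenced from poly(A)-selected libraries; per the labels, those with low input were ribodepleted instead, without saying which. The authors used an nf-core RNA-seq workflow with STAR and Salmon on GRCm39, per the submitters' processing notes and the methods. They deposited estimated counts per gene (6.62% to 10.6% of a library's values were not whole) and TPM values. Here the estimated counts were rounded and fitted with edgeR 4.0.16 (R 4.3.3): TMM scaling, filterByExpr, 1 quasi-likelihood fit of all 24 libraries, and Benjamini-Hochberg adjustment over the 13318 genes tested (99.77% of counts). SE is the log2 fold change divided by the root of F. CPM are TMM scaled. Summed levels were compared by exact permutation. The fits were tested on simulated data. DESeq2 1.42.0, limma 3.58.1 on log2 TPM with a pseudocount of 1 or 0.1, other scalings and filters, a replicate block, a small RNA covariate and single-library omissions were alternatives.

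Members and lists were chosen with earlier results of these data known. All 9 members are named; of the other lists, up to 4 genes each that were called against control and averaged at least 10 CPM, plus Plaur, Plat, Reck and Furin as partners; 1 further partner is not reported here. Gm and Syn genes that overlap members and the marker genes were named for the checks they serve. Sequences are from RefSeq, gene positions from GENCODE. Total counts of 4.09 to 15.2 M give at least 266 counts per library for each of Mmp2, Mmp14, Timp1, Timp2, Timp3, Adamts1 and Plau. No 2 libraries of a condition agreed within sampling noise. P-values measure the spread between these tissues.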

Additional observations from a re-analysis of the deposited data

Results flagged for a closer look

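Among 32 checks of a member in a condition for a library far from the rest, where chance gives about 1 in 20, 2 stood out. Timp2 in control replicate 6 was at 626 CPM while the other controls were at 424 to 484. Adamts5 in control replicate 2 was at 23.5 CPM while the others were at 27.6 to 29.7.

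At the thresholds of a call, the effects of different frequencies relative to the same control differed by a direct test for 3 members. Timp2 passed by adjusted p alone at 10 Hz against 1 Hz (-0.31, edgeR adjusted p = 0.00701). Mmp2 had log2 fold changes of -0.53 at 4 Hz against 1 Hz, -1.48 at 10 Hz against 1 Hz and -0.95 at 10 Hz against 4 Hz. Its call at 4 Hz against 1 Hz was lost in 7 of 12 single-library omissions. For Adamts1 the values were -0.80 at 4 Hz and -0.86 at 10 Hz, each against 1 Hz. Plau differed by 0.93 at 10 Hz against 4 Hz. With the small RNA share as a covariate, some of these calls were lost. At 10 Hz against 4 Hz, Plau was at 0.30 (edgeR adjusted p = 0.908) and Mmp2 at -0.49 (edgeR adjusted p = 0.561). At 4 Hz against 1 Hz, Mmp2 was at -0.49 (edgeR adjusted p = 0.0206), under the 0.5 minimum. The calls of Adamts1 and of Mmp2 at 10 Hz against 1 Hz were kept.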

How the results depend on the processing

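Of 1152 values from alternatives for 48 member comparisons, 1126 stayed on the same side of the call, 13 lost and 13 gained a call, and 0 called values reversed; 53 values that were never called changed sign. By adjusted p alone, 4 members were higher at 1 Hz, 3 were higher and 2 lower at 4 Hz, and 1 was lower at 10 Hz, against control. With the small RNA share as a covariate, 0 were called higher at 1 Hz, 0 higher and 0 lower at 4 Hz, 1 lower at 4 Hz against 1 Hz, and 0 higher and 0 lower at 10 Hz against 4 Hz. With limma on log2(TPM + 0.1), 1 was lower at 10 Hz. Leaving out single libraries gave 1 to 3 members higher at 1 Hz, 0 to 1 higher and 0 to 1 lower at 10 Hz, and 1 to 2 lower at 4 Hz against 1 Hz. The cause was not tested; the covariate was lower in each 1 and 4 Hz library than in any control, and with it 1 gene of all those tested was called at 1 Hz against control.

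Same-numbered libraries of different conditions had a mean correlation of 0.05 over 36 pairs, 10 of them over 0.1, against -0.01 for differently numbered ones. Of 24 libraries, 10 correlated best with a library of their own number. No chance level was computed, so these values do not settle whether the numbers mark pairs. The main fit did not take the numbers as pairs. The replicate block gave Mmp2 1.46 at 1 Hz and 0.95 at 4 Hz and Plau -0.88 at 4 Hz, and changed no member's call. Total count scaling shifted the median of all genes at 4 Hz by -0.11 and called 1012 higher and 1821 lower there; limma on log2(TPM + 1) called 677 and 2057 with a median of -0.16. Mmp9 was limited by depth.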
